A study of Mus musculus with 87 samples.

Results

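The 10 transcription factors described here are Pou5f1, Sox2, Nanog, Klf2, Klf4, Klf5, Esrrb, Tbx3, Tfcp2l1 and Zfp42, the core pluripotency factors of mouse embryonic stem cells (mESCs). They were chosen by symbol, and each had 1 row among the 55487 genes counted in all 41 RNA-seq libraries of the series, so the description covers 10 of 55487 genes. POU5F1 (OCT4) and SOX2 bind DNA side by side and, with the homeobox protein NANOG, hold mESCs in a self-renewing state that can form every tissue of the embryo. The zinc finger proteins KLF2, KLF4 and KLF5, the nuclear receptor ESRRB, the T-box protein TBX3 and the CP2-family protein TFCP2L1 sustain the naive form of that state under LIF and WNT signalling, and Zfp42 (REX1) is a classical marker of it. At the 2-cell (2C) stage the embryo first transcribes its own genome, and it builds up this network later, on the way to the blastocyst; mESCs that pass through a 2C-like state are known for lacking OCT4 protein.

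The study asked whether Obox4, a multicopy homeobox gene, can stand in for Dux, a homeobox activator of 2C genes. The data came from 5 RNA-seq experiments and from CUT&RUN. In the induction experiment, 129/Ola mESCs of the EB3 line carrying TRE-3xFLAG-Obox4, a doxycycline-driven transgene, were sampled at 0, 12 and 48 h with 3 libraries each. In the 2C experiment, zygotes of 8-week-old B6D2F1 mice were injected with antisense oligonucleotides (ASO). The groups were 40 µM scramble, 20 µM anti-Obox4 (Obox4 KD), 20 µM anti-Dux (Dux KD), a 40 µM mixture of both (double KD), and that mixture with Obox4 mRNA at 100 ng/µL (rescue), with 2 libraries each of 30 pooled embryos. The morula experiment held embryos of 8-week-old B6D2F1 mice after 40 µM scramble ASO or the 40 µM mixture (double KD), with 2 libraries each. The blastomere experiment held cells of 2C embryos, 2 libraries each, that were Obox4 WT, heterozygous (Het) or KO; all of them were Dux KO on a B6D2F1 background, and 1 cell of each embryo was sequenced. In the PlaB experiment, WT, Obox4 KO, Dux KO and Obox4/Dux double KO mESCs of 129/Ola background had 3 libraries each, and every group, WT included, had been passaged in pladienolide B (PlaB), a splicing inhibitor that turns mESCs into totipotent blastomere-like cells. That experiment holds no RNA from untreated cells. CUT&RUN, which maps chromatin-bound proteins by antibody-targeted cleavage, gave 3 peak lists for OBOX4 and 1 for DUX, both FLAG-tagged proteins made from induced TRE transgenes in mESCs rather than the cells' own, and 3 for each of 3 histone marks in untreated and PlaB-treated mESCs of WT and Obox4 KO genotype. The study calls the induction samples and CUT&RUN lists biological replicates, but the sources used here do not say whether mESC replicates were separate cultures, so p-values in those experiments measure the spread between these samples. The study grew its knockout mESC lines from picked single-cell clones and made the double KO line from Obox4 KO lines. The labels name no clone, so in mESC RNA and histone marks genotype and clone cannot be told apart.

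Depth per library was 22470332 to 31504967 counts in the induction experiment, 26148176 to 69461986 in the 2C, 53573946 to 104864947 in the morula, 26447809 to 40004674 in the blastomere and 14283083 to 48837123 in the PlaB experiment. Several libraries stood apart from their labels. The summed Obox4 copies reached 68.0 to 83.5 CPM (counts scaled to a common library size) in the libraries labelled Obox4 KD and 68.4 to 76.0 in scramble, so that knockdown was not visible in these RNA counts. The study also stained OBOX4 and DUX protein in ASO-injected 2C embryos and measured intensity per nucleus. RNA counts do not cover protein and do not show that the knockdown failed. Duxf3, the Dux gene row, stood at 1.93 to 3.66 CPM in Dux KD and 6.49 to 7.68 in scramble. In the morulae labelled double KD, Obox4 stood at 3.74 to 7.93 CPM against 0.321 to 0.351 in scramble. Summed Obox4 was as high in KO blastomeres (19.4 to 27.9 CPM) as in WT ones (20.7 to 31.0), although nearly identical copies make this count uncertain. The study's knockout removed a cluster of Obox4 copies and kept others, and the sum covers 39 annotated copies. Reads from kept copies therefore enter the KO values, which do not show that the knockout failed. Under PlaB, Obox4 stood at 15.6 to 17 CPM in WT, 3.65 to 11.9 in Obox4 KO, 0.116 to 0.130 in Dux KO and 0 to 0.192 in double KO, so that it was nearly absent from both groups without Dux. With reads that map to several places split into fractions, the gap between WT and Obox4 KO was wider. Obox4 then stood at 120 to 126 CPM in WT and 4.67 to 16.1 in Obox4 KO. In that experiment the third Obox4 KO library differed from the other 2, and the third double KO library had 29.8% of its counts in a single RNA. Results on the members and on the wider network that rest on these PlaB libraries are given with and without them.

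The members stood at unequal levels, and their order differed between mESCs and embryos. Levels between genes are given as TPM over protein-coding genes (coding TPM), a scale that divides by gene length and library total, because non-coding RNAs took up most of the plain TPM in embryos; each experiment was counted separately, so levels across experiments carry no test. At 0 h of induction, Nanog was the highest at 1775 ± 77.1 coding TPM (SD, n = 3), followed by Zfp42 at 1481 ± 149, Pou5f1 at 1011 ± 58.2, Tfcp2l1 at 838 ± 77.5 and Sox2 at 702 ± 19.0. Klf4 (460 ± 83), Esrrb (410 ± 49.4) and Klf2 (362 ± 34.1) were neighbours whose libraries overlapped. Tbx3 (150 ± 28.8) and Klf5 (78.4 ± 16.9) were the lowest, and their libraries did not overlap. In the PlaB-treated WT cells, Nanog again led with 1477 ± 31.2 coding TPM (n = 3) and Klf5 was again last with 198 ± 0.836, while Sox2 (943 ± 21.3) and Zfp42 (941 ± 21.5) could not be told apart.

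**Figure D1:**
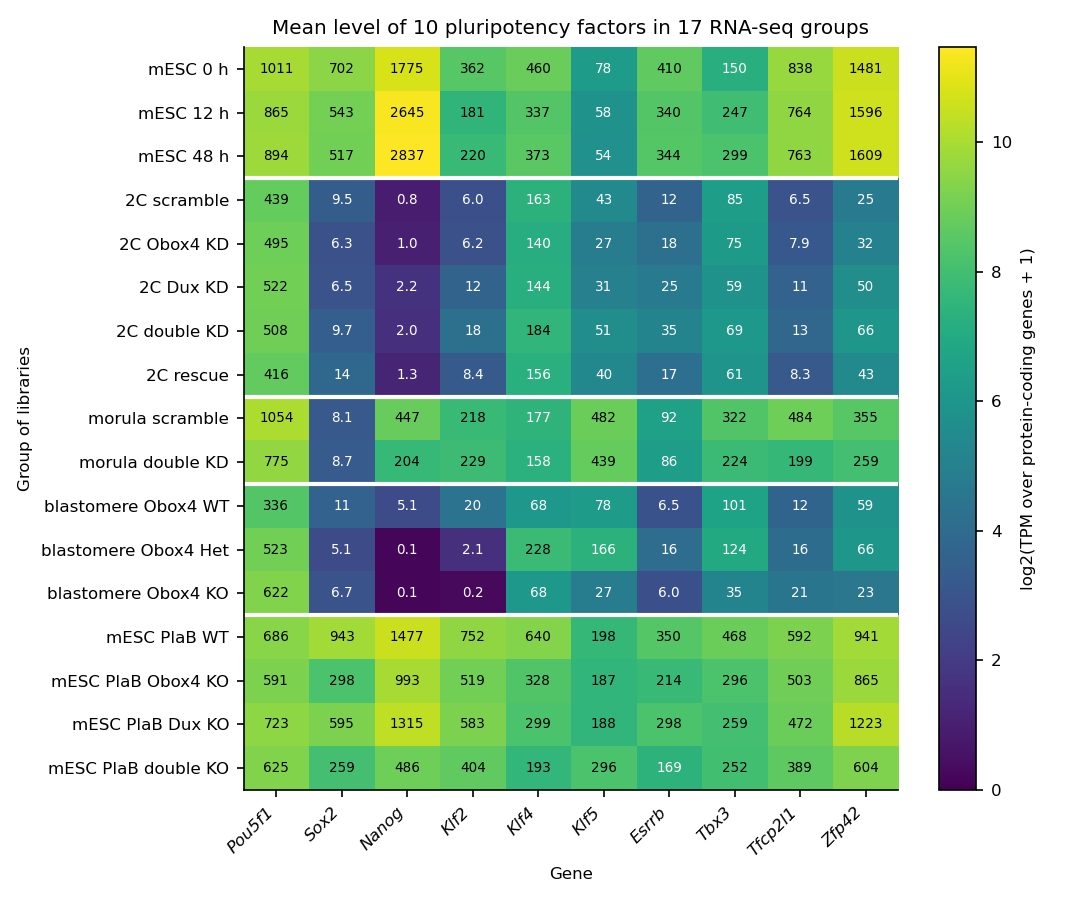
Mean level of each factor (columns) in each of the 17 RNA-seq groups (rows) in coding TPM; the colour is log2 of that level plus 1 and the printed number is the mean. At 0 h of induction Pou5f1 stood at 1011 and Nanog at 1775, and in scramble 2C embryos at 439 and 0.848.

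In scramble 2C embryos, Pou5f1, which the oocyte supplies, was the highest at 439 ± 15.7 coding TPM (SD, n = 2), ahead of Klf4 at 163 ± 17.5 and Tbx3 at 85.3 ± 13.2. Klf5 (42.7 ± 7.57) and Zfp42 (25.2 ± 5.12) followed. Esrrb (11.7 ± 2.27), Sox2 (9.46 ± 0.0217), Tfcp2l1 (6.54 ± 0.340) and Klf2 (5.96 ± 1.22) were low, and Tfcp2l1 and Klf2 overlapped. Nanog, which mESCs carry above every other member, was the lowest in 2C embryos at 0.848 ± 0.0642. Scramble morulae held Pou5f1 at 1054 ± 11, Tfcp2l1 at 484 ± 58.9, Klf5 at 482 ± 11.8 and Nanog at 447 ± 112 coding TPM, the last 3 of which overlapped, and Sox2 was the lowest at 8.08 ± 1.01. The order of the members therefore differed by stage, with Sox2 among the high members of mESCs and last in morulae.

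OBOX4 peaks lay near the start of all 10 genes in all 3 OBOX4 lists. A gene counted as bound when a peak came within 3000 bases of a transcript start in at least 2 of the 3 lists, which held for 29.7% of 21851 protein-coding genes. Among the 8316 genes whose starts carried both H3K4me3 and H3K27ac in untreated WT cells, the share was 59.8%, and the members all belong to that class. Within 1000 bases of a start the 10 members kept a peak, against 26.1% of genes, and 9 of the 10 kept one under a stricter limit on −log10 q, set at 10, against 14.6%. The gene lost by that stricter threshold was Klf5, the member with the weakest enrichment.

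Nanog had the strongest OBOX4 peak of the 10, with fold enrichments over background of 163, 174 and 63.3 in lists 1, 2 and 3. Those values ranked it 8, 7 and 60 among 21851 genes. In lists 1 and 2 the summit lay at −4664 and −4668 bases from the start. The list 1 peak was wide and covered the start, whereas the list 2 peak ended short of it and a second peak of 84.4 lay at the start. In list 3 the summit lay at −99. The next were Tfcp2l1 (30.6, 26.4 and 29.0, summits at −2284 to −2358 bases), Klf2 (24.7, 26.4 and 23.3, at −2682 to −2755) and Zfp42 (21.2, 22.6 and 21.2, at −111 to −132). Klf4 reached 14.7, 13.2 and 12.7 within an intron, Tbx3 14.3, 13.6 and 11.9 at its start, Sox2 11.6, 10.9 and 8.74, Pou5f1 9.51, 9.94 and 8.54, and Esrrb 7.68, 9.03 and 5.45. Klf5 had 5.17, 4.24 and 3.98, close to or under the median of 5.14, 5.62 and 4.89 over the genes that had a peak. The DNA under the strongest summits is shown for the 3 members with the highest enrichment, read on the plus strand of GRCm38, with the summit base in a capital:

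Nanog, chr6:122702771-122702871: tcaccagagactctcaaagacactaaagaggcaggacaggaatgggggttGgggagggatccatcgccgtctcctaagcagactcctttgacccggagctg
Tfcp2l1, chr1:118625612-118625712: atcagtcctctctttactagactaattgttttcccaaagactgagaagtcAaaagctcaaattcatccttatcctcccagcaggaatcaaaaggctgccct
Klf2, chr8:72316228-72316328: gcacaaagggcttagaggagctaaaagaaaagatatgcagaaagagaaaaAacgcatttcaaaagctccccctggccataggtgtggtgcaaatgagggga

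**Figure D2:**
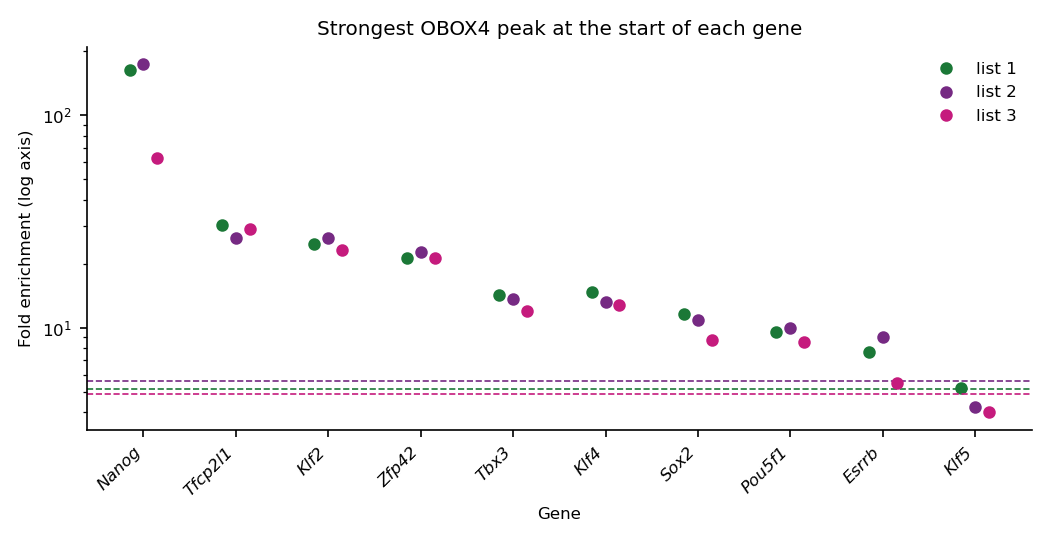
Fold enrichment of the strongest OBOX4 peak within 3000 bases of a start of each factor (horizontal axis, genes) on a log axis, 1 point per peak list; dashed lines are the medians, 5.14, 5.62 and 4.89, over the genes with a peak in each list. Nanog stood highest in each list (163, 174 and 63.3) and Klf5 lowest (5.17, 4.24 and 3.98).

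DUX peaks were rare, at 1.15% of all starts and 1.26% of the starts with both active marks, and among the members only Pou5f1 had one. It spanned chr17:35506550-35507589 on GRCm38 with a fold enrichment of 6.75 and a −log10 q of 12, and its summit lay 1105 bases into the gene, in an intron. Only 1 DUX list was used here, so the peak has no replicate. Its summit is shown with the middle base in a capital:

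Pou5f1, chr17:35507073-35507173: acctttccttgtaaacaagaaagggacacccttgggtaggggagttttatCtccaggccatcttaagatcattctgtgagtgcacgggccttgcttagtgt

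Since POU5F1 is itself a member and binds the octamer, the RefSeq promoters of the members (GRCm38.p6, 250 bases before to 50 after a start) were searched on both strands for its core, TTTGCAT. The word was chosen after the sequences had been seen. Of the 8 members with a promoter in the table, 3 held it: Nanog, Sox2 and Zfp42. Counted the same way, over any promoter of a gene, 5.24% of 27025 genes held it. In windows of another length, 3.15% to 3.49% of the OBOX4 summits in the 3 lists held it within 101 bases. The 250 bases before the start of the 3 genes follow on each gene's own strand, with the octamer core in capitals, which begins at −75, −99 and −185 bases from the start in Nanog, Sox2 and Zfp42. In Sox2 the core reads as its reverse complement:

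Nanog, chr6:122707239-122707488, plus strand: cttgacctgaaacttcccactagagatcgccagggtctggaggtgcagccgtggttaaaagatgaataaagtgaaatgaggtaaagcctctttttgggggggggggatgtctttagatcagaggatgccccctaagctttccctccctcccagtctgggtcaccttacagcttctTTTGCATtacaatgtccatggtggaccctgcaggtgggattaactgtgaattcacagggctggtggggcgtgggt
Sox2, chr3:34649745-34649994, plus strand: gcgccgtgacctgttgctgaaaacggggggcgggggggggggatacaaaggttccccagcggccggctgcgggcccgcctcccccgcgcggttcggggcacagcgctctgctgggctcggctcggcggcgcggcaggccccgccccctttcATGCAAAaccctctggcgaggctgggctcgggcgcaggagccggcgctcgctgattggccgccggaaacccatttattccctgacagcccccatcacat
Zfp42, chr8:43307010-43307259, minus strand: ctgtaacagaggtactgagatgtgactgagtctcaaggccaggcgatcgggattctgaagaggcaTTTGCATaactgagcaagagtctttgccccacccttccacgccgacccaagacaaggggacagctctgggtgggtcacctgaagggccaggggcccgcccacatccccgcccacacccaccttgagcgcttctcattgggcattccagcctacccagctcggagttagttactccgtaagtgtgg

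All 10 members carried H3K4me3, the mark of active promoters, in every list of every condition, and the gene that stood out was Pou5f1. In untreated WT cells its strongest H3K4me3 peak had fold enrichments of 13.5, 13.5 and 22.0, the lowest of the members. With PlaB they were 88.6, 89.7 and 77.9, with no overlap between the groups. The mean log2 ratio was 2.42, rank 1 of 14158 genes with a peak in every list, with an exact permutation p of 0.1, the smallest that 3 lists against 3 allow. Untreated Obox4 KO cells already stood at 47.7, 43.0 and 54.8 (log2 ratio to untreated WT 1.60, rank 70 of 14427), and PlaB-treated KO cells at 127, 116 and 118 (log2 ratio to untreated KO 1.32, rank 59 of 14150). The peaks of untreated WT cells were wide, at 10844, 9336 and 10392 bases, against 7777, 6684 and 6721 bases with PlaB. H3K27ac at Pou5f1, the mark of active promoters and enhancers, averaged 32.6 ± 3.34 without PlaB and 35.8 ± 3.53 with it (SD, n = 3) in WT cells, and its lists overlapped.

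For H3K4me3, 3 of 10 members differed between WT cells with and without PlaB without overlap of the 3 lists on each side, against 51.7% of genes: Pou5f1 was higher and Esrrb and Zfp42 were lower. Between Obox4 KO and WT cells, 7 of 10 were higher in KO cells without PlaB, where 60.8% of genes did not overlap and 46.9% were higher. With PlaB, 8 of 10 were higher in KO cells, where 73.1% did not overlap and 66.4% were higher. The members' median log2 ratios of 0.52 and 0.66 lay near those of all genes, 0.39 and 0.55. Between KO cells with and without PlaB only Pou5f1 was separated, against 33.7% of genes.

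H3K27ac was lower with PlaB at a subset of members in WT cells and, with PlaB, higher in KO than in WT cells at 7 of the 10. In WT cells, 4 of 10 members had lower H3K27ac with PlaB than without it, against 17% of genes that did not overlap and 11% that were lower. At Sox2 the lists read 13.2, 18.1 and 26.0 without PlaB and 9.09, 12.1 and 8.45 with it (log2 ratio −0.92). Tfcp2l1 averaged 20.3 ± 1.59 and 13.4 ± 2.02 (SD, n = 3; −0.60) and Zfp42 32.6 ± 3.81 and 23.4 ± 1.58 (−0.47). Klf5 had a peak in all 3 lists without PlaB, between 4.10 and 4.44, and in 1 of 3 with PlaB. In each of these 3 genes with lists on both sides the exact permutation p was 0.1.

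Without PlaB, H3K27ac was higher in Obox4 KO than in WT cells at Klf4, Klf5, Tbx3 and Tfcp2l1, 4 of 10 members. Of all genes, 25.2% did not overlap and 18.1% were higher. With PlaB it was higher in KO cells at 7 of 10 members, Pou5f1, Nanog, Klf2, Klf4, Esrrb, Tfcp2l1 and Zfp42, against 27.1% of genes that did not overlap and 13.3% that were higher. Klf2 stood at 38.0 ± 3.53 in KO and 20.0 ± 2.27 in WT cells (SD, n = 3; log2 ratio 0.93), and Tfcp2l1 at 25.1 ± 1.57 and 13.4 ± 2.02 (0.91). Nanog stood at 55.2 ± 1.49 in KO and 36.4 ± 10.0 in WT cells. The members' median log2 ratio was 0.51 with PlaB and that of all genes −0.03. Between KO cells with and without PlaB, Nanog was higher and Sox2 and Klf5 were lower, 3 of 10 against 31.2% of genes that did not overlap.

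H3K27me3, the mark of Polycomb repression, lay near 1 member only, Esrrb. Its fold enrichments were 4.66, 4.13 and 4.43 in untreated WT cells and 4.62, 4.50 and 4.33 in PlaB-treated ones. In Obox4 KO cells they were 6.59, 5.50 and 5.88 without PlaB and 6.75, 5.44 and 5.28 with it, so KO and WT lists did not overlap. The lists did not overlap for 59.1% of genes without PlaB and 54.4% with it, and 56% and 51.6% of genes were higher in KO cells.

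**Figure D3:**
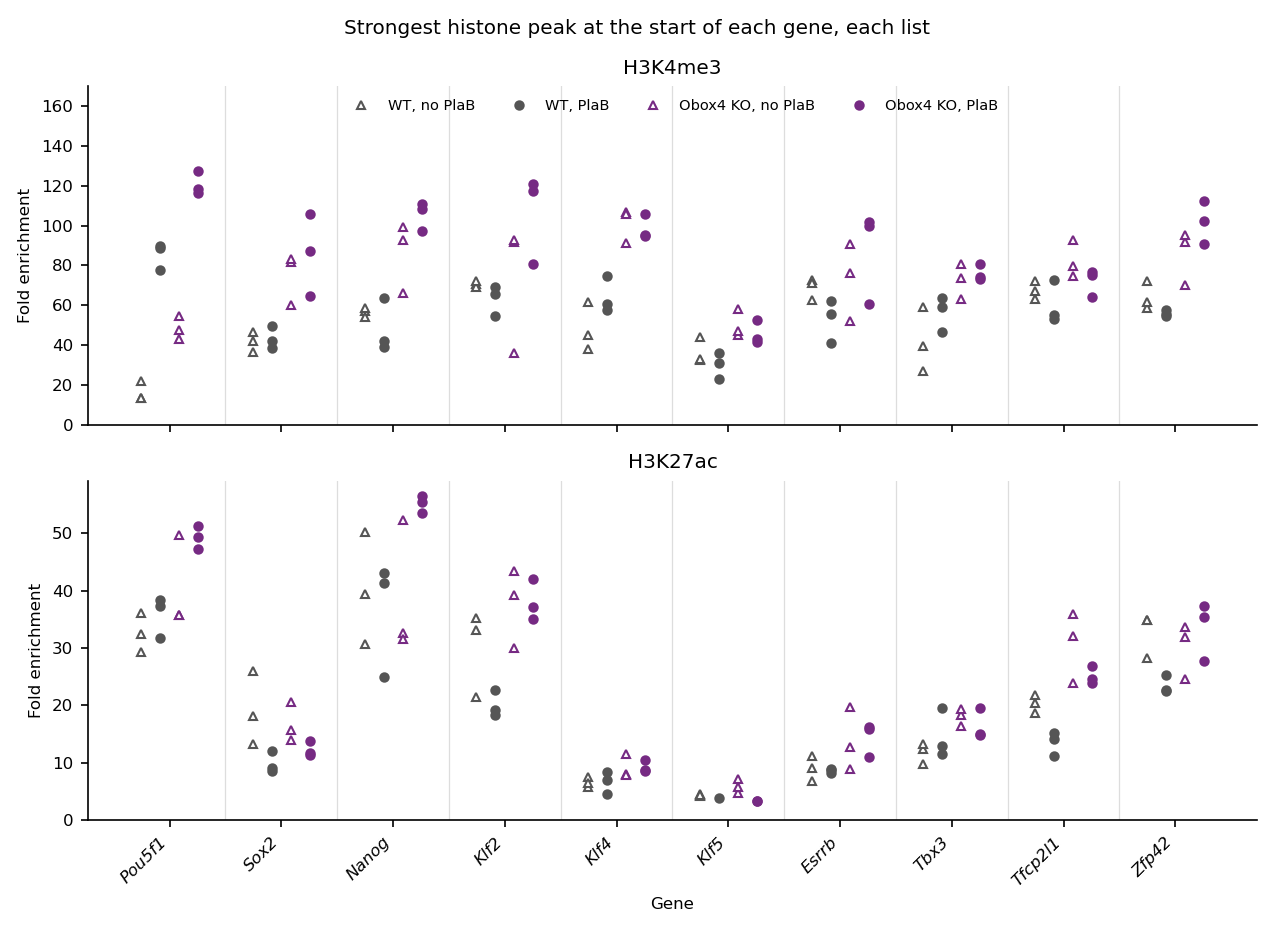
Fold enrichment of the strongest H3K4me3 peak (top) and H3K27ac peak (bottom) near a start of each factor, 1 point per peak list; WT is grey and Obox4 KO purple, open triangles are without and filled circles with PlaB. Pou5f1 H3K4me3 moved from 13.5 to 22.0 in untreated WT cells to 77.9 to 89.7 with PlaB.

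After Obox4 induction in mESCs 1 member, Klf2, stood lower past the threshold. The experiment holds no uninduced cells at 12 or 48 h, so Obox4, doxycycline and time in culture cannot be told apart. The threshold throughout was an adjusted p of at most 0.01 (edgeR quasi-likelihood test, Benjamini-Hochberg over all genes tested) with at least a 2-fold change. Klf2, a Kruppel-like factor of the naive state, had 147, 162 and 160 CPM at 0 h, 82.5, 75.1 and 73.1 at 12 h and 86.2, 83.4 and 98.9 at 48 h. Both later groups lay below every 0 h library. The change was −1.02 at 12 h (log2, SE 0.10, adjusted p = 4.62e-04) and −0.80 at 48 h (SE 0.0996, adjusted p = 4.88e-04), the second under the fold limit. Klf2 was therefore the 1 of 10 members called at 12 h, against 0.757% of 18625 genes, and 0 of 10 were called at 48 h, by edgeR or DESeq2, against 3.95%. At 12 h its change lay close to the fold limit, and without the third 12 h library it was −0.99 and no longer called.

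Nanog and Tbx3 stood higher after induction. Nanog stood at 1032, 888 and 883 CPM at 0 h, 1147, 1547 and 1465 at 12 h and 1620, 1304 and 1314 at 48 h, with no overlap with 0 h (0.57, adjusted p = 0.0643, and 0.60, adjusted p = 0.0222, edgeR). Tbx3 stood at 191, 245 and 257 CPM at 0 h, 510, 296 and 305 at 12 h and 336, 458 and 506 at 48 h. Its 48 h difference was 0.91 (SE 0.226, adjusted p = 0.0246). Sox2, the partner of OCT4, had 365, 318 and 334 CPM at 0 h and 285, 202 and 223 at 48 h (−0.52, adjusted p = 0.0483), and none of these 3 genes met the threshold. Pou5f1 ranged from 378 to 584 CPM over the 9 libraries and its groups overlapped at 12 h. At each time 6 members had an unadjusted p under 0.05, against 2811 of 18625 genes at 12 h and 4564 at 48 h. The members' median log2 change was −0.26 at 12 h and −0.30 at 48 h, and that of all genes −0.01 at both.

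Of the 50 other network genes listed for comparison, 49 had a row. At 12 h, 1 of 48 tested rose and 1 fell, against 114 and 27 of all 18625 genes. Fbxo15, a classical OCT4 and SOX2 target, went from 348 to 1209 CPM (1.80) and Lefty1, a Nodal antagonist, from 12.1 to 4.27 (−1.50). At 48 h, 4 rose and 3 fell, against 628 and 107 of all 18625 genes. Markers of the formative state that follows naive pluripotency made up 3 of the 4, among them Pou3f1 (1.80) and Dnmt3a (1.18), while Otx2 of the same list fell (−1.04, 6.16 to 3.01 CPM). Il6st, the signalling chain of the LIF receptor, fell from 148 to 72.4 CPM (−1.04). Summed 2C markers stood at 12.1–16.3 CPM at 0 h and 65.2–81.5 at 48 h, and summed trophectoderm markers at 66.5–69.7 and 95.8–112; in these bulk samples fewer cells of a type and less RNA per cell cannot be told apart, and the part of such cells in the changes was not tested.

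In 2C embryos, Esrrb, Klf2 and Zfp42 stood higher in Dux KD than in scramble and rose past the threshold in double KD, from low levels. Obox4 KD and Dux KD embryos had received a lower ASO dose than scramble, double KD and rescue embryos. Where Obox4 KD or Dux KD is compared with scramble or double KD, the knockdown and the ASO dose therefore cannot be told apart. Esrrb, an orphan nuclear receptor, had 16.5 and 12.6 CPM in scramble, 20.3 and 22.4 in Obox4 KD, 26.6 and 26.1 in Dux KD, 36.2 and 33.3 in double KD, and 19.7 and 20.4 in rescue. The double KD pair lay above every other library and the rescue pair between it and scramble. Its changes from scramble were 0.55 (adjusted p = 0.0174, edgeR) in Obox4 KD, 0.85 (SE 0.128, adjusted p = 1.95e-04) in Dux KD and 1.25 (SE 0.127, adjusted p = 6.99e-07) in double KD. From double KD to rescue the change was −0.79 (SE 0.122, adjusted p = 1.13e-04).

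Klf2 had 2.57 and 1.93 CPM in scramble, 1.76 and 2.73 in Obox4 KD, 4.06 and 3.49 in Dux KD, 6.08 and 4.85 in double KD, and 3.20 and 2.68 in rescue. Its double KD change was 1.27 (SE 0.249, adjusted p = 5.88e-04), and the change from double KD to rescue −0.90 (SE 0.23, adjusted p = 0.00713). Zfp42 had 11.1 and 8.34 CPM in scramble, 18.5 and 14.5 in Dux KD, 24.2 and 16.9 in double KD, and 12.4 and 18.0 in rescue, so that rescue and double KD overlapped. It rose by 1.08 in double KD (SE 0.204, adjusted p = 4.30e-04). Tfcp2l1, a factor downstream of LIF, went from 13.1 and 12.2 CPM in scramble to 19.6 and 20.7 in double KD (0.67, adjusted p = 2.58e-04), under the fold limit.

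In double KD 3 of 10 members were thus called, Klf2, Esrrb and Zfp42, all higher, against 11.6% of 23085 genes. In Obox4 KD 0 of 10 were called, against 0.412%, in Dux KD 0 against 4.30%, and in rescue 0 against 2.67%. From Dux KD to double KD 0 were called, against 0.754%, and from double KD to rescue 0 against 4.37%. At an unadjusted p under 0.05 the counts were 3, 9, 4, 3 and 5 in these 5 comparisons. Of the 23085 genes, 4437, 7306, 5639, 5600 and 8783 met that limit. DESeq2 also called 0 members in each. The members' median change was 0.30 in Dux KD and in double KD, and that of all genes 0.04 and 0.03. The Klf2 and Zfp42 calls were lost without the second scramble library (1.09 and 0.89) or without the first double KD library (1.06 and 0.76), whereas the Esrrb call was kept in both. Esrrb was also called in Dux KD without the first scramble library (1.06). The comparisons with scramble share its 2 libraries.

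Tbx3 and Klf5 stood lower than in scramble. Tbx3 had 128 and 103 CPM in scramble, 109 and 87 in Obox4 KD, 72.9 and 65.3 in Dux KD, 74.2 and 77.4 in double KD, and 69.8 and 83.1 in rescue (−0.74, adjusted p = 3.36e-04, in Dux KD; −0.61, adjusted p = 5.51e-04, in double KD; −0.60, adjusted p = 0.00291, in rescue; edgeR). Klf5, which acts in the first split of embryonic and placental fates, had 51 and 39.9 CPM in scramble, 26.5 and 29.4 in Obox4 KD, 31.3 and 25.5 in Dux KD, but 44.7 and 42.1 in double KD, and 34.0 and 45 in rescue. Each single knockdown lay below scramble, by −0.70 (SE 0.144, adjusted p = 0.00731) and −0.68 (adjusted p = 0.00297), and the double KD overlapped scramble (−0.07). The difference between the observed double KD and the sum of the single changes, tested as an interaction term, was 1.31 (SE 0.202, adjusted p = 0.00304, edgeR), which called 1 of 10 members against 0.256% of genes. Scramble and double KD had received 40 µM ASO and both single knockdowns 20 µM, so that the interaction and the ASO dose cannot be told apart. The call was lost when the first scramble (1.12), the second Dux KD (1.15), or the first (1.27) or second (1.33) double KD library was left out.

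The remaining members changed little or were close to the detection limit. Pou5f1 ranged from 172 to 221 CPM over the 10 libraries and Klf4 from 72.9 to 109. Sox2 had 3.98 and 3.99 CPM in scramble, 2.87 and 2.20 in Obox4 KD, 3.09 and 1.63 in Dux KD, 3.58 and 2.98 in double KD, and 5.35 and 5.29 in rescue. The rescue pair was the highest (0.69 against double KD, adjusted p = 0.0396). Nanog lay between 0.346 and 1.15 CPM in all libraries.

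**Figure D4:**
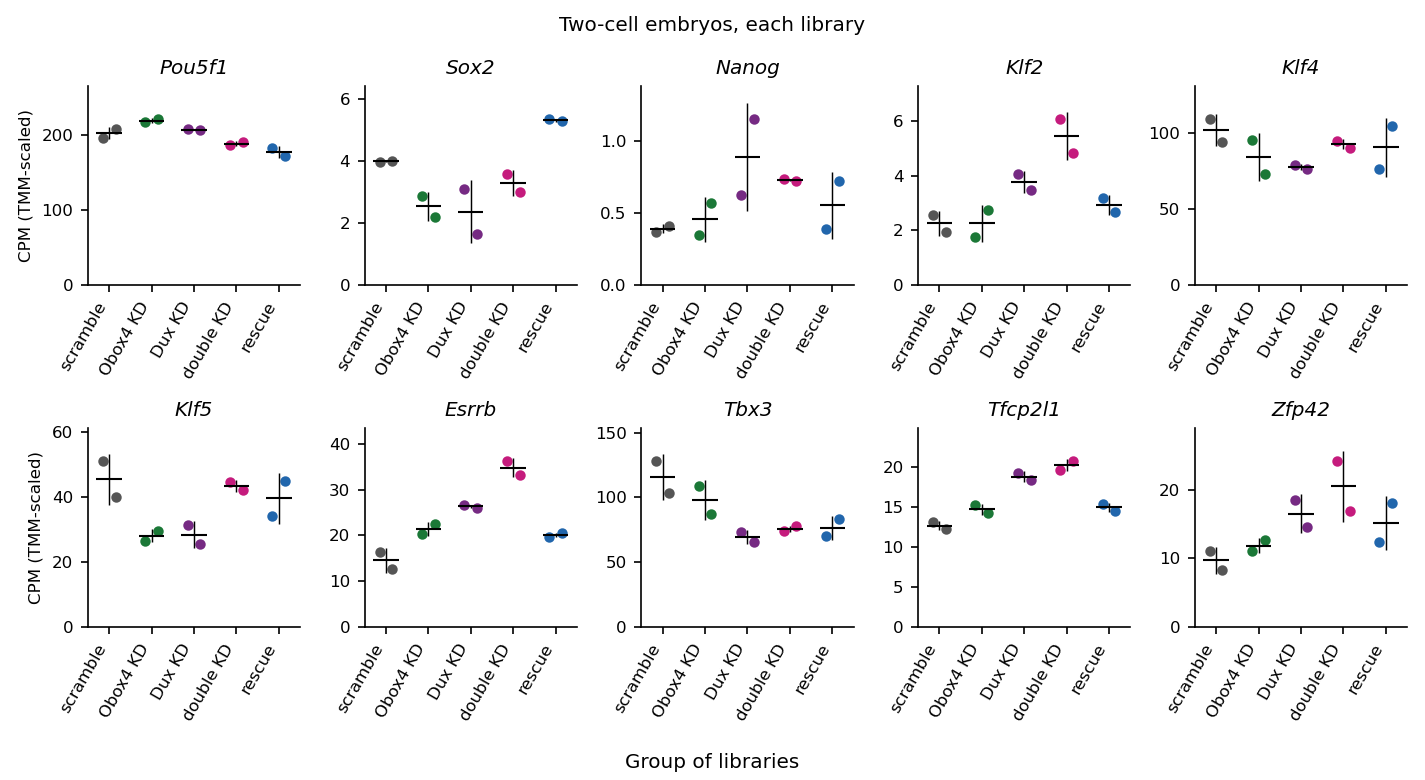
Level of each factor in each 2C library in CPM (1 panel per factor, axis from 0; horizontal lines are means and vertical lines SDs of 2 libraries). Esrrb ran from 12.6 and 16.5 in scramble to 33.3 and 36.2 in double KD and back to 19.7 and 20.4 in rescue, and Klf5 was low in both single knockdowns.

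Of 47 tested genes of the wider network, 6 rose and 3 fell in double KD, against 1944 and 729 of all 23085 genes. Lif, the cytokine that keeps mESCs naive, went from 0.342 to 3.29 CPM (3.19), Fgf4, a target of OCT4 and SOX2, from 4.20 to 11.5 (1.46), and Tdgf1, a Nodal co-receptor, from 0.128 to 0.917 (2.71). Zfp57, a guardian of imprinted loci, fell from 838 to 365 CPM (−1.20) and stood at 1006 in rescue (1.46 against double KD). In the other comparisons, 0 rose and 2 fell in Obox4 KD, 3 rose and 1 fell in Dux KD, 4 rose and 1 fell in rescue, and 1 rose and 1 fell from double KD to rescue. Over all genes, 53 rose and 42 fell in Obox4 KD, and 750 and 243 in Dux KD. In rescue the numbers over all genes were 330 and 286, and from double KD to rescue 253 and 755. Summed 2C markers, all 8 measured, moved with these changes, at 995–1089 CPM in scramble, 442–457 in Dux KD, 272–301 in double KD and 412–600 in rescue, and summed oocyte markers stood at 2423–2517 in scramble, 1374–1536 in double KD and 2358–2398 in rescue. None of 6 fibroblast markers exceeded 1 CPM. The part of embryo stage or maternal RNA in the members' differences was not tested.

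In morulae every member averaged lower in double KD than in scramble on the CPM scale, and none passed the test. In coding TPM, Sox2 (8.66 against 8.08) and Klf2 (229 against 218) averaged higher in double KD. Tfcp2l1 had 1027 and 1198 CPM in scramble and 641 and 135 in double KD (−1.52, adjusted p = 0.312, edgeR). Nanog had 203 and 285 CPM in scramble and 137 and 47.3 in double KD (−1.40, adjusted p = 0.261). In both genes the groups did not overlap, but the 2 double KD libraries were far apart. Pou5f1 (586 and 567 against 478 and 217 CPM), Tbx3 (514 and 526 against 413 and 180) and Zfp42 (157 and 168 against 134 and 60.1) showed the same gap between the double KD libraries. Klf5, at 605 and 615 against 511 and 374 CPM, and Esrrb, at 147 and 125 against 112 and 88.0, also did not overlap. Klf2, Klf4 and Sox2 overlapped or touched. With 2 libraries against 2, a lack of overlap often occurs without a difference between groups, and its share over all genes is not given here.

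The count was 0 of 10 members called, against 0% of 22142 genes, with 1 member and 3941 genes at an unadjusted p under 0.05; DESeq2 called 790 genes and 0 members. Without the first double KD library only the second was left in that group. The changes then included Pou5f1 (−1.50), Nanog (−2.45), Klf4 (−1.05), Tbx3 (−1.62), Tfcp2l1 (−3.13) and Zfp42 (−1.52). Without the second, 0 were called, and Klf2 turned to 0.06. With no filter on low counts, 2 were called, Nanog and Tfcp2l1. The second double KD library was the one that stood apart, with summed 2C markers at 368 CPM against 51.7 in the first and 29.7–36.1 in scramble, and Duxf3, the Dux gene row of the tables, at 6.00 CPM against 0.285 in the first. Summed primitive endoderm markers were 261–462 CPM in double KD and 601–671 in scramble. The part of a delay in stage in the lower member levels was not tested. Of 48 tested genes of the wider network 0 were called by edgeR, and 11 had an unadjusted p under 0.05.

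In Dux KO blastomeres 0 of the 9 members tested were called between Obox4 KO and WT cells, against 0% of 19182 genes. The 2 libraries of each did not overlap in Pou5f1, Klf2, Klf5, Tbx3, Tfcp2l1 and Zfp42. With 2 against 2, that often occurs without a difference between groups, and the share over all genes is not given here. Pou5f1 had 171 and 110 CPM in Obox4 WT, 188 and 259 in Het, and 323 and 264 in KO cells (KO against WT 1.06, adjusted p = 0.461, edgeR). Tbx3 had 118 and 131 CPM in WT, 188 and 126 in Het, and 36.5 and 60.6 in KO cells (−1.36, adjusted p = 0.451). Klf5 had 57.3 and 94.4 CPM in WT, 191 and 137 in Het, and 25.0 and 34.9 in KO cells (−1.34, adjusted p = 0.461). Klf5 and Tbx3 lay lower in KO cells while Pou5f1 lay higher. Tfcp2l1 was higher in KO (42.2 and 40.9 CPM) than in WT (18.8 and 23.6), and Zfp42 lower (7.33 and 10.6 against 27.2 and 14.3). Klf2 had 4.25 and 9.51 CPM in WT but 0.163 and 0 in KO cells. Nanog, at 0 and 4.32 CPM in WT and 0.0407 and 0.0834 in KO cells, was too low to be tested.

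In Het against WT 0 of 9 were called as well, against 0%. At an unadjusted p under 0.05 there were 3 members and 1388 genes in KO, and 2 members and 532 genes in Het; DESeq2 called 257 and 52 genes and 0 members. Tbx3 was called in KO (−1.78) without the second KO library, and Klf4 in Het (2.48) without the second Het library, whose level was 50.4 CPM against 216 in the first. Of 40 tested genes of the wider network 0 were called by edgeR in either comparison, and 6 in KO and 2 in Het had an unadjusted p under 0.05.

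Under PlaB, 2 of the 10 members fell in Obox4 KO, 1 in Dux KO and 4 in double KO, with Klf4 called in all 3, and 0 rose. Nanog had 806, 813 and 843 CPM in WT, 480, 500 and 513 in Obox4 KO, 687, 692 and 680 in Dux KO, and 250, 293 and 255 in double KO. All 4 groups were separate. Its double KO change from WT was −1.62 (SE 0.0929, adjusted p = 1.32e-07, edgeR) and its Obox4 KO change −0.72 (adjusted p = 1.48e-04), under the fold limit. Sox2 had 491, 468 and 482 CPM in WT, 101, 102 and 221 in Obox4 KO, 291, 283 and 282 in Dux KO, and 130, 151 and 109 in double KO. Every Obox4 KO and double KO library lay below every Dux KO library. It fell by 1.77 on the log2 scale in Obox4 KO (SE 0.250, adjusted p = 3.22e-04) and by 1.88 in double KO (SE 0.251, adjusted p = 8.34e-05). Pou5f1 varied less, with 383, 365 and 398 CPM in WT, 276, 285 and 334 in Obox4 KO, 371, 383 and 382 in Dux KO, and 307, 297 and 429 in double KO, and it was called in no comparison.

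Among the Kruppel-like factors, Klf4 was called in every knockout. It had 498, 475 and 478 CPM in WT, 224, 222 and 225 in Obox4 KO, 214, 210 and 212 in Dux KO, and 140, 165 and 125 in double KO. Its changes were −1.11 (SE 0.102, adjusted p = 2.06e-05), −1.19 (SE 0.102, adjusted p = 4.26e-06) and −1.75 (SE 0.104, adjusted p = 1.75e-07). Klf2 had 339, 330 and 363 CPM in WT, 183, 184 and 285 in Obox4 KO, 248, 251 and 253 in Dux KO, and 142, 197 and 210 in double KO (−0.91, adjusted p = 0.00130). Klf5 went against its relatives, with 255, 253 and 257 CPM in WT and 312, 384 and 437 in double KO (0.57, adjusted p = 0.0296). Its Obox4 KO libraries read 179, 177 and 308, on both sides of WT, and its Dux KO libraries 234, 229 and 222.

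Esrrb had 526, 518 and 528 CPM in WT, 258, 255 and 367 in Obox4 KO, 415, 418 and 424 in Dux KO, and 226, 275 and 251 in double KO. The change was −0.84 (adjusted p = 7.60e-04, edgeR) in Obox4 KO and −1.06 (SE 0.135, adjusted p = 5.76e-05) in double KO. Tbx3 stood at a like level in every knockout, with 768, 765 and 773 CPM in WT, 419, 420 and 479 in Obox4 KO, 397, 393 and 410 in Dux KO, and 408, 438 and 377 in double KO (−0.81, −0.94 and −0.91), each under the fold limit. Tfcp2l1 went from 1395, 1397 and 1363 CPM in WT to 799, 1037 and 859 in double KO. Zfp42, a naive state marker, stood higher in Dux KO (543, 538 and 526 CPM) than in WT (446, 441 and 429; 0.29, adjusted p = 0.157) and lower in double KO (296, 310 and 226).

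In Obox4 KO 2 of 10 members were called, Sox2 and Klf4, against 8.88% of 22328 genes. In Dux KO 1 was called, Klf4, against 6.32%. In double KO 4 were called, Sox2, Nanog, Klf4 and Esrrb, against 18.0%. All of these calls were lower. The members' median changes were −0.69, −0.37 and −0.91, and those of all genes 0.02, 0.00 and −0.06. From Dux KO to double KO, between groups that both had Obox4 RNA near 0, 2 of 10 were called, against 7.07%: Sox2 (−1.13, SE 0.246, adjusted p = 0.00598) and Nanog (−1.37, SE 0.0923, adjusted p = 5.03e-06). The Zfp42 change in that comparison was −0.95 (adjusted p = 3.66e-04, edgeR), just under the fold limit. The interaction of the knockouts called 0 of 10, against 1.25%, and 0 by DESeq2. At an unadjusted p under 0.05 there were 5 members and 5782 of 22328 genes. Tbx3 came nearest to a call (0.83, SE 0.132, adjusted p = 0.00464, edgeR). The comparisons with WT share its 3 libraries.

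The third Obox4 KO library lay toward WT in Sox2, Klf2, Esrrb and Zfp42. Without it and the third double KO library, Obox4 KO called 3 members (Sox2 at −2.27, Klf4, and Esrrb at −1.06), double KO called 5 (Klf2 at −1.03 in addition), double against Dux KO 2, and the interaction 2 (Sox2 at 1.24 and Klf5 at 1.15). Calls over all genes rose as well in Obox4 KO and in the interaction, with numbers in the section on processing. For double KO against WT and against Dux KO, the count over all genes without these libraries is not given here. The Sox2 call from Dux KO to double KO was lost without any 1 of the 3 Dux KO libraries, or the first or the third double KO library (−1.04 to −1.14). The Esrrb call in double KO was lost without the first double KO library (−0.99). The Zfp42 difference from Dux KO to double KO was called without the first (−1.0) or second (−1.04) double KO library.

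**Figure D5:**
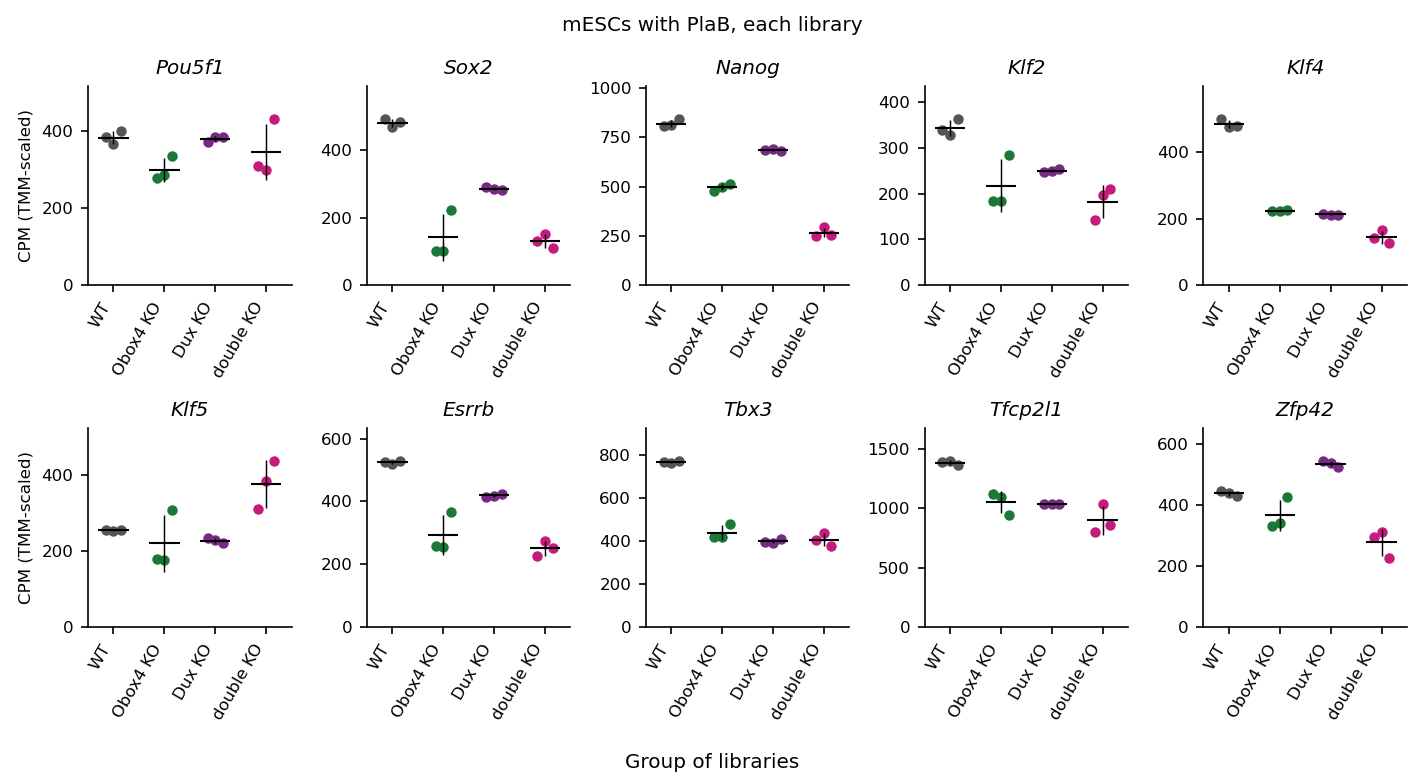
Level of each factor in each PlaB library in CPM (1 panel per factor, axis from 0; horizontal lines are means and vertical lines SDs of 3 libraries). Nanog separated all 4 groups, from 806–843 in WT to 250–293 in double KO, and the third Obox4 KO library lay toward WT in Sox2 (221 against 101 and 102).

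Other genes of the network changed in the same experiment. Of 49 tested, 1 rose and 11 fell in Obox4 KO, against 4.92% and 3.96% of all genes, 1 rose and 6 fell in Dux KO, against 1.62% and 4.70%, and 4 rose and 18 fell in double KO, against 9.25% and 8.79%. Without the third Obox4 KO library and the third double KO library the counts were 3 and 22, 1 and 6, and 3 and 19. Of the 19 targets and naive state markers, 9 fell in double KO and 0 rose, Fbxo15 the most (583 to 125 CPM, −2.22). Of the 13 tested partner transcription factors, 4 fell and 1 rose: Prdm14, a guardian of the naive state, went from 55.3 to 9.03 CPM (−2.63), while Klf17 went from 0.651 to 3.26 (2.28). In the LIF pathway 2 fell and 1 rose, the cytokine Lif itself (14.7 to 47.2 CPM, 1.68). The 9 formative and primed markers split into 2 higher and 3 lower, with Pou3f1 at 27.1 against 4.78 CPM in WT (2.49) and Sox3 at 0.649 against 7.61 (−3.75). In Obox4 KO, Prdm14 (−2.27) and Gbx2 (−1.91) fell and Sall1 rose (1.12), and in Dux KO, Sox3 (−2.93), Fbxo15 and Pim1 (−1.73 each) fell and Etv4 rose (1.03). From Dux KO to double KO, 3 rose and 10 fell, against 5.07% and 2.00% of all genes, among the latter Spp1 (−1.47) and Jam2 (−1.27). The interaction called 1 higher, Socs3 (1.73), a feedback inhibitor of LIF signalling, named after its value was seen. Without those libraries the interaction called 17 higher and 3 lower, and over all genes 3016 in place of 278, so that its count rests on those libraries.

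Of the trophectoderm markers, 7 of 8 had a row, none was at 0, and all but Eomes rose in double KO. Their summed level was 163–166 CPM in WT, 560, 562 and 1925 in Obox4 KO, 417–424 in Dux KO and 3064–3819 in double KO. In double KO the keratins Krt8 (53.2 to 1438 CPM) and Krt18 (32.6 to 1574) made up most of it, and Cdx2, the defining factor of the trophectoderm, went from 16.2 to 123 CPM (2.92, adjusted p = 0.00325, edgeR) while Eomes did not pass the test (18.8 and 26.8). Primitive endoderm markers summed to 67–71.5 CPM in WT and 206–285 in double KO. Summed 2C markers were 844–946 CPM in WT, 360, 367 and 779 in Obox4 KO, and 0–0.390 in the 2 groups without Dux. Whether cells of another type or a change within the cells lowered the member levels was not tested.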

How the data were processed

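RNA-seq counts per gene were deposited by the authors, who, per the submitters' notes and methods, used fastp 0.23.2, STAR 2.7.9a and featureCounts 2.0.1 (2.0.6 in the blastomere file headers) on GRCm38; counts of uniquely assigned reads were the main values. The authors also deposited estimated counts in which multi-mapping reads were split into fractions; these were rounded here and used as an alternative. The deposited blastomere tables also hold some non-whole counts, which were rounded. CUT&RUN peaks were called by the authors in each replicate with MACS3 3.0.0a6, and the deposited peak lists give fold enrichment (a ratio) and −log10 q; pile-up signal was not used. Genes that passed edgeR's filterByExpr were tested with edgeR 4.0.16 (quasi-likelihood, TMM scaling, R 4.3.3), each experiment in 1 fit over its groups, two-sided, with Benjamini-Hochberg adjustment over all genes tested; a call needed an adjusted p of at most 0.01 and at least a 2-fold change, and DESeq2 1.42.0 was an alternative. CPM values are TMM-scaled; coding TPM, chosen after seeing the data, uses the files' gene lengths and protein-coding genes. A peak was assigned to a gene when it came within 3000 bases of a protein-coding start. Sequences came from GRCm38 and RefSeq. The 10 members and the comparison lists were chosen with earlier results of these data known, all members were named, and from the comparison list up to 3 genes per comparison and direction, those called without overlap of the groups and with the largest change; 1 such gene is not reported here. Per member, the 1 gene of the most similar pattern across groups could also be named. Scripts were tested on simulated data with 200 changed genes. Intervals from counts cover counting error only.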

Additional observations from a re-analysis of the deposited data

Results flagged for a closer look

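The Klf5 response to the combined knockdown in 2C embryos differed from the sum of its responses to the single knockdowns. Klf5 stood lower than scramble in Obox4 KD (−0.70) and in Dux KD (−0.68), and not in double KD (−0.07). The interaction term, which tests that difference itself, was 1.31 (SE 0.202, adjusted p = 0.00304, edgeR quasi-likelihood test). The call was lost in 4 of the 8 fits that left out 1 library. Scramble and double KD had received 40 µM ASO and the single knockdowns 20 µM. Neither the term nor the changes in the single knockdowns can therefore be told apart from the ASO dose. The libraries labelled Obox4 KD did not have lower Obox4 RNA than scramble. OBOX4 protein, which the study stained in such embryos, is not covered by these counts.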

How the results depend on the processing

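With an adjusted p of at most 0.05 and no fold limit, the members called numbered 4 at 48 h, 2 in 2C Obox4 KD, 6 in Dux KD, 5 in double KD, 2 in rescue, 2 from Dux KD to double KD, 4 from double KD to rescue, 7 in PlaB Obox4 KO, 3 in Dux KO, 9 in double KO, 6 from Dux KO to double KO and 4 in the interaction. The share of all genes called under that looser rule is not given here, so these counts cannot be weighed against it. In PlaB double KO, 11052 of 22328 genes had an unadjusted p under 0.05 (edgeR). With no filter on low counts 2 were called in morulae; with the third library of Obox4 KO and of double KO out, chosen after seeing the data, 2 in the interaction, where the genes called overall went from 278 to 3016 (1983 to 3910 in Obox4 KO and 1412 to 2423 in Dux KO). Esrrb lost its H3K27me3 peak (0 members) at a −log10 q of at least 10 in both untreated conditions and in WT with PlaB. In the induction experiment, libraries with the same replicate number had correlations of deviations from −0.61 to 0.38, of both signs. In the other experiments these ran from −0.0412 to 0.102. The main fits did not treat replicate numbers as pairs. The replicate block took the 12 h call away (0 members) and changed no other count of calls. Leaving out 1 library at a time gave 0 to 1 calls at 12 h, 0 to 1 in 2C Dux KD, 1 to 3 in double KD, 0 to 1 in its interaction, 0 to 6 in morulae, 0 to 1 in each blastomere comparison, 2 to 3 in PlaB Obox4 KO, 3 to 5 in double KO, 1 to 3 from Dux KO to double KO and 0 to 2 in the interaction. Of 2108 member values under alternatives, 1988 kept direction and side of the threshold, 16 lost the threshold, 63 gained it and 41 changed sign, over 20 results, each near 0 or spread widely; the cause was not tested. Klf2 in 2C Obox4 KD turned to 0.0042 with no filter, 0.0015 with only the groups compared, 0.0087 with the replicate block and 0.0096 with multi-mapping reads. Pou5f1 turned to −0.0098 in 2C Dux KD and 0.0040 in PlaB Dux KO with no filter. Tbx3 from Dux KO to double KO turned to −0.0094 with no filter and −0.016 with multi-mapping reads, and Zfp42 in the 2C interaction to −0.037 with multi-mapping reads. Leaving out 1 library gave Zfp42 −0.00032 to 0.28 at 12 h and −0.11 to 0.17 at 48 h. In 2C Obox4 KD it gave Nanog −0.16 to 0.54 and Klf2 −0.37 to 0.26; in Dux KD Pou5f1 −0.0071 to 0.074; in double KD Klf5 −0.24 to 0.12; in rescue Nanog −0.0019 to 0.88 and Klf4 −0.41 to 0.035. The 2C interaction ran from −0.36 to 0.030 for Esrrb and −0.26 to 0.24 for Zfp42. Nanog ran from −0.68 to 0.20 from Dux KD to double KD. From double KD to rescue Klf4 ran from −0.27 to 0.18, Klf5 from −0.35 to 0.057 and Tbx3 from −0.11 to 0.14. Klf2 in morulae ran from −0.72 to 0.064. In blastomeres, Sox2 ran from −1.13 to 0.54 and Esrrb from −0.39 to 0.72 in KO, and Zfp42 from −0.21 to 0.72 in Het. Under PlaB, Pou5f1 ran from −0.028 to 0.031 in Dux KO and Tbx3 from −0.030 to 0.061 from Dux KO to double KO. With 2 libraries a group in embryos, only changes larger than their spread could be detected, and 0 calls there do not show that levels were equal.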

Other observations

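Over the 17 group means the genes most like a member were Rnaseh2b for Nanog (r = 0.997), St3gal4 for Sox2 (0.997), Platr27 for Esrrb (0.997) and Zfp825 for Pou5f1 (0.994), all on log2 TPM over all genes, of which protein-coding genes held 9.99% to 19.8% in embryos. The points share experiments and library types. The values within mESC groups and within embryo groups are on log2 coding TPM. Within the 7 mESC groups, 17 of the 45 member pairs had a negative r, from −0.92 to 0.95 with a median of 0.37. Nanog and Zfp42 were the most alike there (0.95), and Klf5 and Tfcp2l1 the least (−0.92). These groups come from the induction and PlaB experiments, so differences between experiments enter their r. Within the 10 embryo groups, 6 of 45 pairs were negative, from −0.34 for Pou5f1 and Sox2 to 0.94, with a median of 0.74.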
